A study of Mus musculus with 32 samples.

Results

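The genes examined here encode the proteins of the cytosolic ribosome, measured by RNAseq in skeletal muscle of *Mtm1* knockout (KO) and wild-type (WT) mice. They are the genes of the expected count table whose symbol is Rpl or Rps followed by a number (with an optional a or x) or by p0, p1 or p2, without Rpl3, that had at least 10 counts in at least 4 libraries. The rule takes 74 of 54838 genes, 45 of the large and 29 of the small ribosomal subunit, and all 74 genes that matched the symbols passed the filter. The rule uses names and a low count minimum, and it was set with earlier results of these data known.

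The 32 libraries form 8 groups of 4, with 1 library for each replicate number, genotype and age (P1, P14, P21 and P35, in postnatal days). All mice were on the C57BL6/J strain background. The muscle was the tibialis anterior (TA) according to the study. Its methods list RNA at the later ages and not at P1, while its results name TA at P1 as well. KO mice were *Mtm1*-/y animals that lack exon 4 of the X-linked *Mtm1* gene in every tissue, and WT mice were littermates. The line was first made in another strain and was later rederived onto this background. *Mtm1* encodes myotubularin, a phosphatase of membrane phosphoinositides, and its loss causes X-linked myotubular myopathy.

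A cytosolic ribosome joins a small subunit, which binds the mRNA and reads its codons, to a large subunit, which links amino acids into a chain. Each subunit is built on ribosomal RNA from about equal numbers of copies of its proteins, so the genes for these proteins are usually regulated together. Their mRNAs typically belong to the terminal oligopyrimidine (TOP) class, which begins with a C followed by a run of C and T (C and U in the RNA). Translation of this class follows growth signalling through mTOR and the RNA-binding protein Larp1. In skeletal muscle, ribosome content is known to rise with growth and to fall as postnatal growth slows.

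The following windows show how such starts look in these genes and in members without the run at the annotated start. Each window holds 30 bases on the strand of the gene, 15 before the annotated transcription start and 15 from it, taken from the RefSeq annotation of GRCm38.p6. They belong to genes named in the results, of which the first ones open with a run and the last 4 do not. Capitals mark the TOP-like run that opens the transcript, which was searched for as a C with at least 4 more C or T after it, on the strand of the gene. Small letters are the rest of the window, and windows without capitals hold no such run at that position.
Rpl15 (chr14:18270972-18271001, minus strand): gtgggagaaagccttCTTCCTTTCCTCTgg
Rps18 (chr17:33955651-33955680, minus strand): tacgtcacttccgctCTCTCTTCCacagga
Rps15a (chr7:118116133-118116162, minus strand): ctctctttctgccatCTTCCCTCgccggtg
Rps27 (chr3:90213634-90213663, minus strand): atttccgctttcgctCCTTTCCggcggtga
Rpl14 (chr9:120571502-120571531, plus strand): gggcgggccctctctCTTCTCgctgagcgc
Rplp2 (chr7:141447636-141447665, plus strand): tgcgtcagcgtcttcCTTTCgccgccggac
Rpl13a (chr7:45128731-45128760, minus strand): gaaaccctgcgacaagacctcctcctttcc
Rpl39 (chrX:37085208-37085237, minus strand): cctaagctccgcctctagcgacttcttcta
Rpl41 (chr10:128549154-128549183, minus strand): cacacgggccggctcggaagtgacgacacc
Rps2 (chr17:24720048-24720077, plus strand): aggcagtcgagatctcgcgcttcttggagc

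Promoter windows were at hand for 55 of the 74 genes, with 65 windows in all because some genes have several annotated starts. A TOP-like run opened 13 of the 65 windows (20%), against 2.51% of 32851 windows of all genes. Within the 300 bases from 250 before to 50 after the start, CTTCCG on either strand occurred in 61.5% of the members' windows and in 16.9% of all windows, and AAGATGG on either strand in 16.9% and 6.34%. These matches describe the annotated sequence, in which a start displaced by a few bases removes the run. Several of the windows without capitals hold a run of C and T within a few bases of the annotated start, as in Rpl13a.

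Counts summed to between 49321034 and 85631408 per library. A member had between 1671 and 141151 counts in a library. Levels are given below in CPM, counts per library scaled to a common total with the trimmed mean of M values (TMM) over the 32 libraries, whereas each log2 fold change comes from the edgeR fit of the 8 libraries it compares. A gene was called at a Benjamini-Hochberg adjusted p under 0.05 over all genes tested, and the stricter count asks for an adjusted p under 0.01 with a change over 1.5-fold, as used in the study. The study's methods give muscles per genotype as n for the later ages, and the labels number the replicates without saying what separates them, so p-values measure only the spread between these libraries, part of which may be technical. In bulk muscle RNA fewer cells of a type and less RNA per cell cannot be told apart. The level of *Mtm1* was 19.3 to 21.8 CPM in WT and 3.79 to 4.51 in KO at P14, and the P21 and P35 groups were as far apart. At P1 it was 5.26 to 6.02 CPM in WT and 2.32 to 3.91 in KO (log2 fold change -0.98 ± 0.172 (SE), edgeR adjusted p = 0.0669), so the groups did not overlap at any age. Replicate 4 of the P1 KO group stood apart from the other P1 libraries. Its summed CPM of the immature fibre markers was 7413 against 15999 to 20907 in the others, and its sum of fast fibre markers was 19383 against 25952 to 36266. Results at P1 are therefore given with and without it.

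Together the 74 genes took between 0.949% and 5.84% of all counts in a library. In WT muscle their share was 4.04%, 3.69%, 3.45% and 3.69% in the 4 libraries at P1, 1.52%, 1.52%, 1.35% and 1.33% at P14, 1.06%, 1.10%, 1.09% and 1.11% at P21, and 1.01%, 1.10%, 0.962% and 0.949% at P35. In KO muscle it was 4.0%, 3.73%, 3.6% and 5.84% at P1, 1.81%, 1.70%, 1.58% and 1.48% at P14, 1.37%, 1.51%, 1.44% and 1.5% at P21, and 1.67%, 1.75%, 1.90% and 1.75% at P35. In WT every P14 library was below every P1 library and every P21 library below every P14 library, while P35 overlapped P21. In KO every P35 library was above every P21 library. WT and KO were separate at P21 and P35 and overlapped at P1 and P14. At P14, where libraries with the same number deviated together, KO was above WT in each of the 4 numbered pairs.

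The ratio of the KO to the WT mean share was 1.16 at P1 (1.02 without KO replicate 4), 1.15 at P14, 1.33 at P21 and 1.76 at P35. Counts of the mitochondrially encoded genes made up 12.4% to 17.9% of WT libraries and 10.3% to 10.5% of KO libraries at P35, and with these genes left out of the total the ratio at P35 was 1.66. These ratios rest on library totals and are not specific to the ribosomal protein genes. Scaled that way, the median log2 fold change over all genes tested was 0.20 at P21 and 0.44 at P35. With TMM scaling the median change over the 74 members was 1.19-fold at P21 and 1.365-fold at P35.

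**Figure D1:**
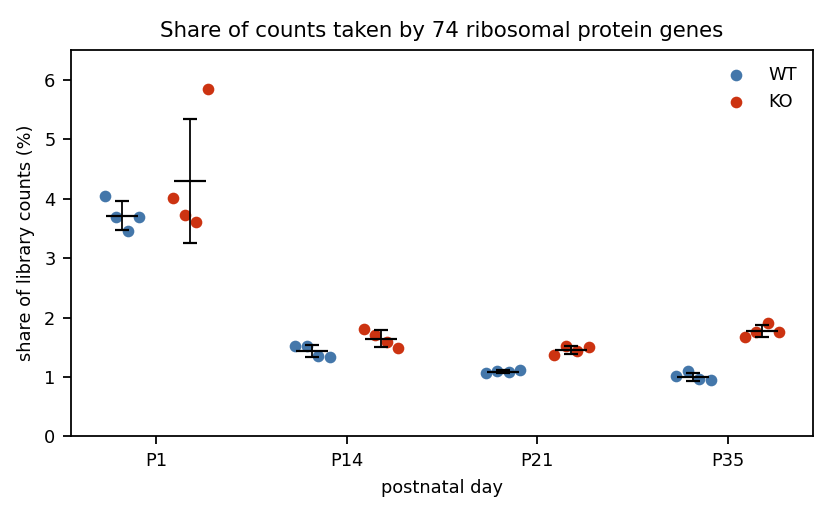
Share of all counts taken by the 74 ribosomal protein genes (percent, y axis) in each library by age (x axis), WT and KO side by side. Each point is 1 library, and the bars give the mean ± SD (n = 4). KO libraries lie above all WT libraries at P21 and P35, and KO replicate 4 at P1 lies at 5.84%.

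The members differed among themselves in level. Per kilobase of the principal annotated transcript, the mean over the 32 libraries had a median of 268 CPM per kb over the 74 genes, with quartiles of 189 and 342. The highest levels per kilobase were those of Rplp1 (721 CPM per kb), Rps2 (683) and Rplp0 (592). Rplp0, Rplp1 and Rplp2 form the stalk of the large subunit, which recruits and activates the elongation factors, and Rps2 lies near the mRNA entry of the small subunit. The lowest were those of Rps15a (35.4 CPM per kb), Rps20 (51.3) and Rpl22 (59.0), whose principal transcripts in the annotation are long, 5179 bases for Rps15a against a median of 869 for the members. In CPM without regard to length, Rps15a stood at 183. Rps15a and Rps20 are small subunit proteins, and Rpl22 is a large subunit protein that cells can do without and that has a paralog, Rpl22l1.

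In WT muscle most ribosomal protein genes fell between P1 and P14. Of the 74, 69 were lower at P14 and 0 were higher, against 42.1% of all genes lower and 37.3% higher (79.4% in either direction), and 44 met the stricter count, which 30.4% of all genes met as falls. The median log2 fold change was -0.64 over the members and -0.08 over all genes tested. It was -0.60 over the 45 large subunit genes and -0.74 over the 29 small subunit genes, a difference that was not tested. Markers of other cells and of immature fibres also fell in this step. Of the keratinocyte markers 12 of 12 were lower at P14 (median log2 fold change -11.40), from a sum of 2418 to 7586 CPM in WT at P1 to 12.6 to 17.9 at P14. Whether the P1 libraries hold TA muscle alone was not tested. Also lower were 5 of 5 markers of immature fibres (median -4.33), 6 of 6 of macrophages and leukocytes (-1.41), 5 of 6 of fibroblasts (-1.15), 4 of 5 erythroid markers (-1.40) and 6 of 6 of proliferation (-1.37), while 9 of 9 fast fibre markers (1.96) and 4 of 4 endothelial markers (0.86) were higher. The part of these markers in the fall of the ribosomal protein genes was not tested.

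The largest fall was that of Rps27, a zinc finger protein of the small subunit with a paralog, Rps27l. Its WT levels were 239, 229.8, 196 and 204 CPM at P1 and 83.3, 82.2, 78.8 and 86.6 at P14 (log2 fold change -1.40 ± 0.0776 (SE), edgeR adjusted p = 2.85e-07). Every P14 library was below every P1 library by more than the spread within either age. Rps19, a small subunit protein known as the gene most often mutated in Diamond-Blackfan anaemia, came next. It went from 314, 285, 259.6 and 272 CPM to 114, 114, 107 and 109.8 (log2 fold change -1.36 ± 0.0726 (SE), edgeR adjusted p = 2.49e-07), again without overlap. Rps12 followed at -1.13, adjusted p = 1.39e-06.

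The smallest falls that were called were those of Rps14 (-0.36, adjusted p = 0.00502), Rpl11 (-0.35, adjusted p = 0.000687) and Rpl4 (-0.30, adjusted p = 0.00338). Rpl11 belongs to the ribonucleoprotein of the 5S rRNA, which can bind the p53 regulator Mdm2, and Rps14 is the small subunit protein whose loss marks the anaemia of the 5q- syndrome. The genes not called were Rpl24 (-0.04), Rpl27 (-0.07), Rpl30 (-0.17), Rps2 (-0.02) and Rps25 (-0.08). Rps2 had 717, 711, 656 and 706 CPM at P1 and 678, 645, 693 and 748 at P14, so its groups overlapped. The stalk genes went from means of 954 ± 67.1 to 738 ± 29.8 CPM (SD, n = 4) for Rplp0 (-0.38, adjusted p = 0.00180), with log2 fold changes of -0.64 for Rplp1 (adjusted p = 1.55e-05) and -0.74 for Rplp2 (adjusted p = 3.35e-06).

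Between P14 and P21 the fall went on at a smaller size. In this step 50 members were lower and 0 higher (all genes 12.6% lower, 13% higher, 25.6% in either direction), 3 met the stricter count (all genes 2.6% as falls), and the median was -0.26 against -0.03 over all genes. Erythroid markers were higher at P21, 5 of 5 with a median of 2.78, and their sum went from 288 to 514 CPM in the WT libraries of P14 to 2080 to 2829 at P21. Of the markers of immature fibres 4 of 5 were lower (median -2.20), as were 4 of 5 satellite cell markers (-0.65). The part of these markers in the step was not tested. Rpl39, an X-linked large subunit protein at the peptide exit tunnel, had 129.6, 127, 121 and 124 CPM at P14 and 76.1, 76.1, 70.6 and 77.1 at P21 (log2 fold change -0.75 ± 0.0542 (SE), edgeR adjusted p = 0.000179). Rpl41, the shortest of the ribosomal proteins, changed by -0.68 (adjusted p = 0.000563). For Rps14 the levels were 399, 391, 372 and 408 CPM at P14 and 256, 273, 236 and 258 at P21 (log2 fold change -0.63 ± 0.0696 (SE), edgeR adjusted p = 0.000740). All 4 P21 libraries lay below all 4 P14 libraries for both Rpl39 and Rps14, although Rps14 had been among the members that fell least in the step before.

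The weakest calls of this step were Rps12 (-0.21, adjusted p = 0.0296), Rpl14 (-0.21, adjusted p = 0.0360) and Rpl6 (-0.20, adjusted p = 0.0498). Rps2 and Rps27 had positive values that were not called, 0.20 (adjusted p = 0.0969) and 0.14 (adjusted p = 0.0939).

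Between P21 and P35 the members no longer moved one way in WT. Of the 74, 4 rose and 11 fell (all genes 9.99% higher, 7.67% lower, 17.7% in either direction), 0 met the stricter count in edgeR, and the median was -0.05. At an unadjusted p under 0.05 there were 24 members (all genes 34.4%), and DESeq2 called 21 (all genes 23.5%). Erythroid markers were lower at P35, 5 of 5 with a median of -3.49 and a sum of 131 to 396 CPM, so the WT libraries of P21 stood above those of both neighbouring ages. Their part in either step was not tested. The 4 that rose were Rps14, Rpl39, Rpl41 and Rpl22. Rps14 was back at 343, 416, 319 and 429 CPM (log2 fold change 0.54 ± 0.102 (SE), edgeR adjusted p = 0.00937), a range that overlaps its P14 levels, and Rpl39 at 103, 109, 92.4 and 96.0 (log2 fold change 0.40 ± 0.0659 (SE), edgeR adjusted p = 0.00640). Of these 4, the genes Rps14, Rpl39 and Rpl41 (0.38, adjusted p = 0.0220), were also the genes with the largest falls from P14 to P21, and both steps share the P21 WT libraries. Rpl22 rose by 0.25 (adjusted p = 0.0208).

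The largest fall of the last step was that of Rps26, a small subunit protein that contacts the mRNA ahead of the start codon. Its levels were 118, 123, 113 and 117 CPM at P21 and 86.1, 94.4, 74.7 and 83.7 at P35 (log2 fold change -0.49 ± 0.0742 (SE), edgeR adjusted p = 0.00512), without overlap. Over all 32 libraries 10.9% of the counts at Rps26 and its near-identical copies were assigned to the copies. In WT this share was 15.3% at P21 and 24.4% at P35. The largest copy lies within the gene Med21, so the share includes the reads of Med21. With the copies added, and with them the reads of Med21, the change was -0.33 (edgeR adjusted p = 0.0152). That sum does not isolate Rps26. Rpl23a (-0.40, adjusted p = 0.00755) and Rps27 (-0.36, adjusted p = 0.00670) came next. The call count rested in part on single libraries, since 8 members were called without WT replicate 1 of P21, 9 without WT replicate 4 of P21 and 8 without WT replicate 4 of P35.

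**Figure D2:**
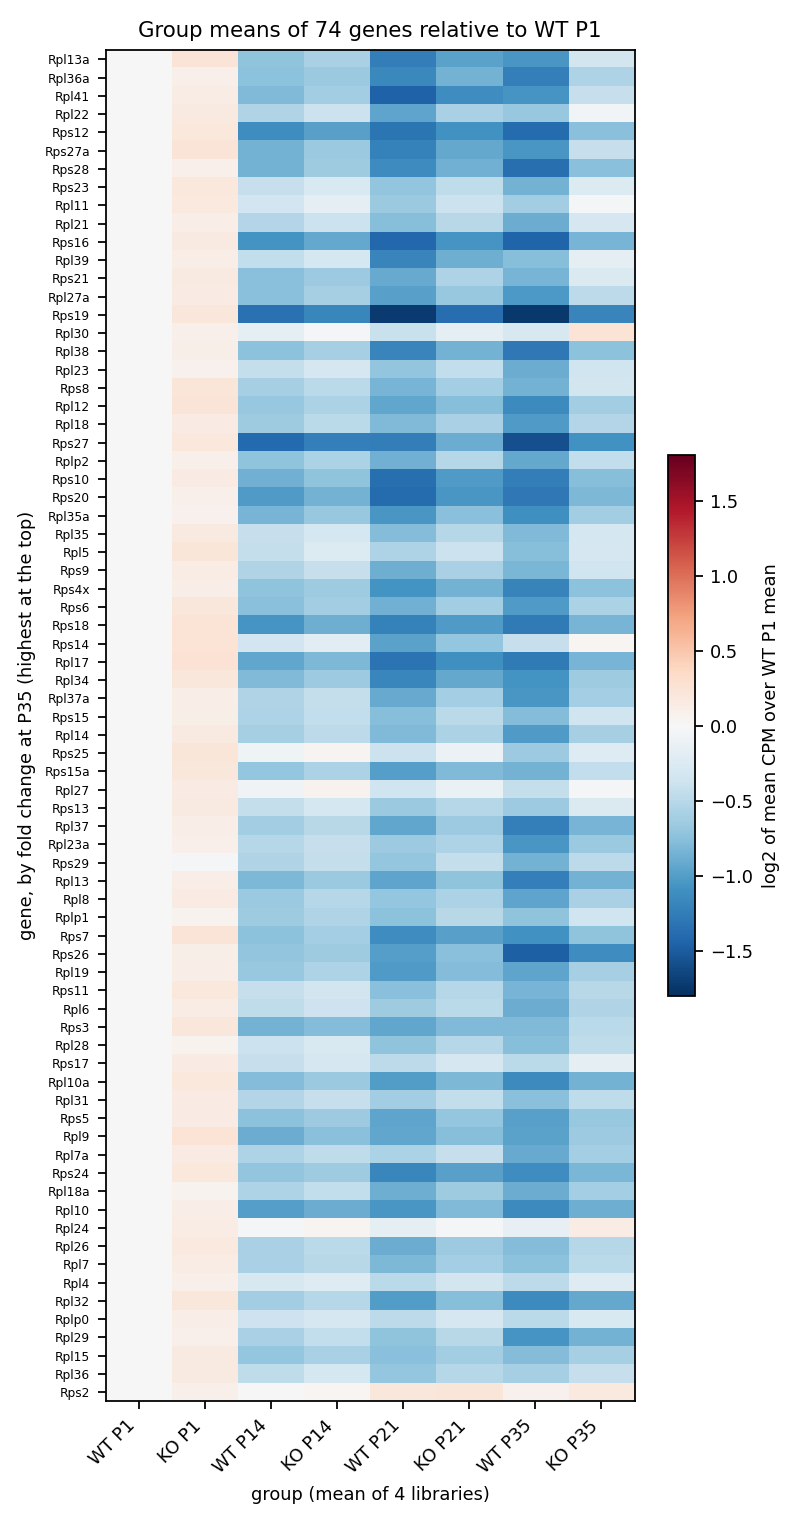
Mean level of each of the 74 genes (rows) in each group (columns), as log2 of the group mean CPM over the WT mean at P1, with genes ordered by their log2 fold change between KO and WT at P35. Columns of the later ages are mostly lower than WT at P1, and the KO column at P35 is higher than the WT column at that age for most genes.

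Over the whole course, 73 members had their highest WT mean at P1 and 71 their highest KO mean at P1. The mean was higher at P35 than at P21 in 56 members in KO and in 26 in WT, and higher at P21 than at P14 in 11 members in KO. These are counts of means, without a test.

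At P1 no ribosomal protein gene was called between KO and WT. In edgeR 0 of 74 were called (all genes 0.243%), 0 had an unadjusted p under 0.05 (all genes 10.9%), and DESeq2 also called 0 (all genes 2.19%). The log2 fold changes ran from -0.0025 to 0.27 with a median of 0.16, and 73 were positive (all genes 52.8%). Without KO replicate 4 the median was 0.03, the range -0.09 to 0.09, and 66 were positive. The genes with the smallest p were Rpl22 (0.17, adjusted p = 0.532), Rpl10a (0.21, adjusted p = 0.601) and Rpl8 (0.15, adjusted p = 0.602). Rpl10a had 318, 292, 263 and 288 CPM in WT and 316, 297, 290.4 and 425 in KO, where replicate 4 was the one value above the WT range. Rpl10a forms the mobile stalk beside the exit site of the large subunit, and Rpl8 lies close to the peptidyl transferase centre.

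At P14 all 74 log2 fold changes were positive (all genes 50.1%), with a median of 0.12 and a range of 0.04 to 0.20, but edgeR called 0 (all genes 0.0954%). An unadjusted p under 0.05 was reached by 35 members (all genes 6.82%), and in 49 members every KO library was above every WT library, which held for 3.28% of all genes. The lowest adjusted p was 0.532. DESeq2 called 3, Rpl11, Rpl19 and Rpl9 (all genes 0.966%). At this age libraries of WT and KO with the same number deviated together, and edgeR called 5 members once replicate number was added as a block.

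These 5 were Rps27a (0.19, adjusted p = 0.0369 in the blocked edgeR fit), Rps28 (0.21, 0.0407), Rps19 (0.17, 0.0438), Rpl11 (0.17, 0.0440) and Rps18 (0.18, 0.0473). Under the block 883 of all genes (5.61%) were called, 452 of them higher. Rps28 is a small subunit protein near the mRNA exit, and Rps27a is made as a fusion with ubiquitin. Rpl11 had 226, 226, 221 and 223 CPM in WT and 257, 257, 249.6 and 246 in KO at P14. For Rps27a the values were 190.3, 189, 175 and 188 in WT and 215, 220.0, 208 and 203 in KO. Neither gene overlapped between genotypes, although the distance between the groups was small. Rps28 had 105, 96.6, 93.9 and 105 CPM in WT and 112, 122, 113 and 116 in KO (without the block log2 fold change 0.20 ± 0.0612 (SE), edgeR adjusted p = 0.532).

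At P21 most of the ribosomal protein genes were higher in KO. Of the 74, 55 were called higher and 0 lower (all genes 11.4% higher, 21% in either direction), made up of 32 of 45 large and 23 of 29 small subunit genes. The median log2 fold change was 0.25 (range 0.04 to 0.37) against 0.01 over all genes, and 0 members met the stricter count, which 4.67% of all genes met in either direction. In 60 members every KO library was above every WT library, as in 13.7% of all genes. The count fell to 31 without KO replicate 2 or KO replicate 4 and to 32 without WT replicate 3, and it was 31 with all 32 libraries in 1 fit.

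Rpl22 was the member with the largest change at P21. Its levels were 80.5, 78.1, 77.8 and 80.9 CPM in WT and 99.7, 105, 102 and 99.5 in KO (log2 fold change 0.37 ± 0.0518 (SE), edgeR adjusted p = 0.00176). Rps19 had 85.5, 87.0, 83.1 and 86.3 CPM in WT and 108, 113, 104 and 112 in KO (log2 fold change 0.36 ± 0.0528 (SE), edgeR adjusted p = 0.00205). In both genes the gap between the groups was wider than the range within WT. Rps27 had 94.0, 91.5, 87.1 and 95.5 CPM in WT and 111, 126, 111 and 121 in KO (log2 fold change 0.36 ± 0.0637 (SE), edgeR adjusted p = 0.00469), also without overlap.

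The smallest changes called at P21 were those of Rps18 (0.20, adjusted p = 0.0318), Rps15a (0.20, adjusted p = 0.0366) and Rpl10a (0.21, adjusted p = 0.0438). Among the 19 members not called were Rps2 (0.04, adjusted p = 0.766), Rplp0 (0.19, adjusted p = 0.108), Rpl5 (0.18, adjusted p = 0.0780) and Rps3 (0.15, adjusted p = 0.109). Rpl5 is the partner of Rpl11 in the 5S ribonucleoprotein and Rps3 lies at the mRNA entry. Of the stalk genes Rplp1 (0.24, adjusted p = 0.0348) and Rplp2 (0.36, adjusted p = 0.00839) were called.

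At P35 all but 1 of the ribosomal protein genes were called higher in KO. The counts were 73 members higher and 0 lower, against 21.4% of all genes higher (41.4% in either direction). The median log2 fold change was 0.45 (range 0.12 to 0.74) against 0.04 over all genes. It was 0.41 over the large subunit genes, of which 45 of 45 were called, and 0.47 over the small subunit genes, with 28 of 29. In 72 members every KO library was above every WT library, as in 19.2% of all genes. The 55 members called at P21 were all among those called at P35, an overlap left almost no room to fail with 73 of 74 called.

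The stricter count was met by 13 members, as it was by 8.49% of all genes as rises. They were Rpl13a, Rpl36a, Rpl41, Rpl22, Rps12, Rps27a, Rps28, Rps23, Rpl11, Rpl21, Rps16, Rpl39 and Rps21. Rpl13a, a large subunit protein that can also leave the ribosome to silence inflammatory mRNAs, changed most. It had 225, 259, 215 and 221 CPM in WT and 361, 346, 423 and 383 in KO (log2 fold change 0.74 ± 0.0914 (SE), edgeR adjusted p = 0.000338, 1.67-fold). The lowest KO library was well above the highest WT library.

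Rpl36a, an X-linked large subunit protein, had 59.6, 66.5, 52.2 and 52.3 CPM in WT and 80.5, 81.7, 106 and 99.97 in KO (log2 fold change 0.70 ± 0.117 (SE), edgeR adjusted p = 0.00148). Its KO libraries fell into a lower and a higher pair, and both lay above WT. Rpl41 had 119, 138, 104 and 127 CPM in WT and 176, 167, 219.9 and 205 in KO (log2 fold change 0.68 ± 0.113 (SE), edgeR adjusted p = 0.00146). Over all 32 libraries near-identical copies took 21.7% of the counts at Rpl41 and its copies, the highest share of any member. At P35 the share was 16.5% in WT and 13.1% in KO, below that of Rps26 (24.4% and 21.3%), which includes the reads of Med21. With its copies added the change of Rpl41 was 0.62 (edgeR adjusted p = 0.0011). Rpl22 had 97.4, 102, 87.7 and 95.2 CPM in WT and 150.0, 131, 156 and 155 in KO (log2 fold change 0.66 ± 0.0802 (SE), edgeR adjusted p = 0.000333).

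**Figure D3:**
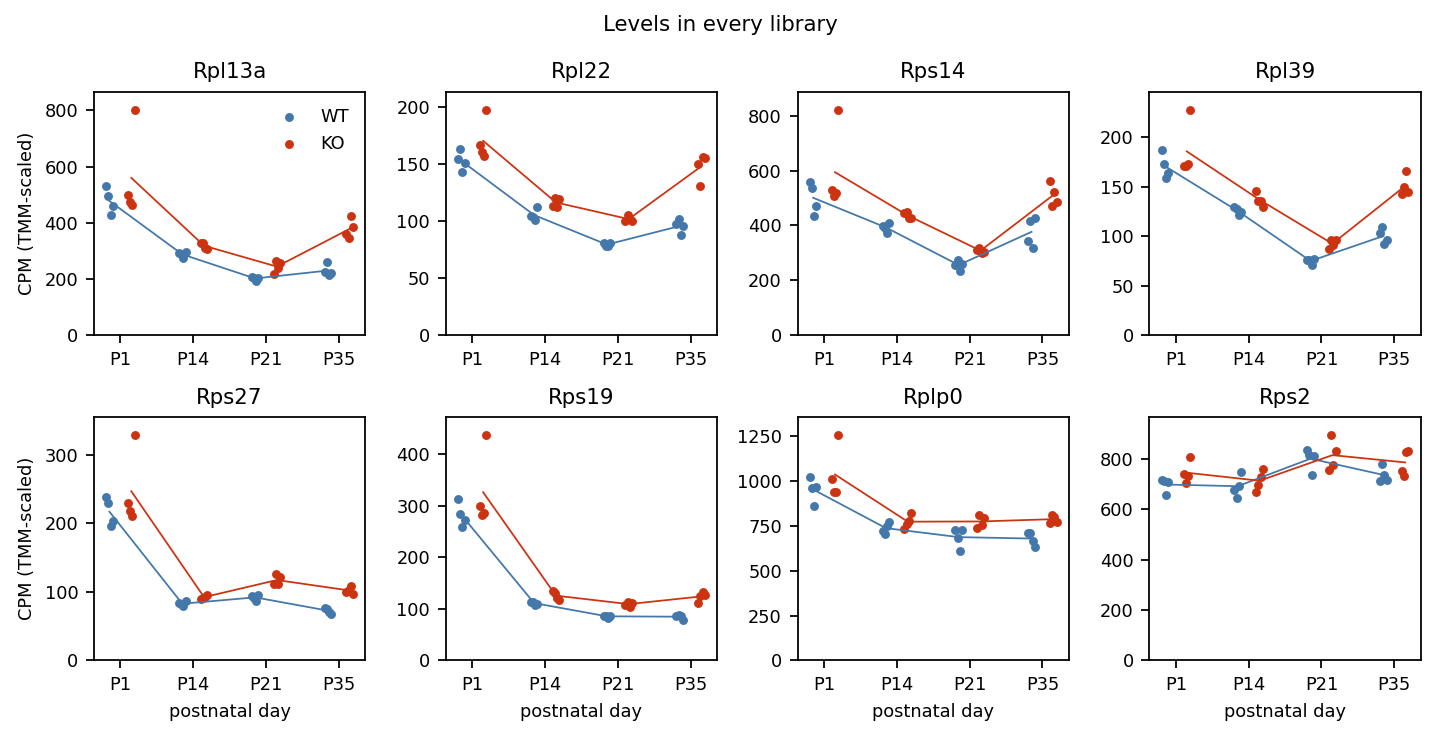
Levels of 8 ribosomal protein genes in CPM (y axes, from 0) in every library by age (x axis), with WT and KO as separate colours and lines that join the group means. Rpl13a, Rpl22, Rps14, Rpl39, Rps27, Rps19 and Rplp0 are separate between genotypes at P35, and Rps2 overlaps at every age. Rps14 returns in WT from 236 to 273 CPM at P21 to 319 to 429 at P35.

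The members with the smallest calls at P35 were Rpl36, Rpl15 and Rpl29. Rpl36 had 101, 104, 97.6 and 96.9 CPM in WT and 109, 117, 116 and 109.5 in KO (log2 fold change 0.20 ± 0.0632 (SE), edgeR adjusted p = 0.0298), 2 narrow groups close to each other. The call of Rpl15 (0.21, adjusted p = 0.0417) was lost when any 1 of the 8 libraries was left out. Rpl29 was at 0.24, adjusted p = 0.0196. The exception was Rps2, with 713, 781, 734 and 715 CPM in WT and 753, 729.8, 828 and 831 in KO (log2 fold change 0.12 ± 0.0815 (SE), edgeR adjusted p = 0.268), where the groups overlapped. Counted from the lowest log2 fold change, Rps2 ranked 14 of 74 at P1 and 1 of 74 at P14, P21 and P35.

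In the stalk, Rplp0 had 712, 710.4, 664 and 633 CPM in WT and 769, 813, 799.6 and 771 in KO (log2 fold change 0.24 ± 0.0784 (SE), edgeR adjusted p = 0.0353). Rplp1 had 306, 304, 269 and 269.8 and 360.0, 348, 398 and 375 (log2 fold change 0.39 ± 0.0801 (SE), edgeR adjusted p = 0.00408). Rplp2 had 126, 129, 113 and 112 and 157, 151, 187 and 179 (log2 fold change 0.51 ± 0.0906 (SE), edgeR adjusted p = 0.00192). None of the 3 overlapped between genotypes. The log2 fold change was thus smallest for the gene with the highest CPM of the 3 and largest for the one with the lowest.

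**Figure D4:**
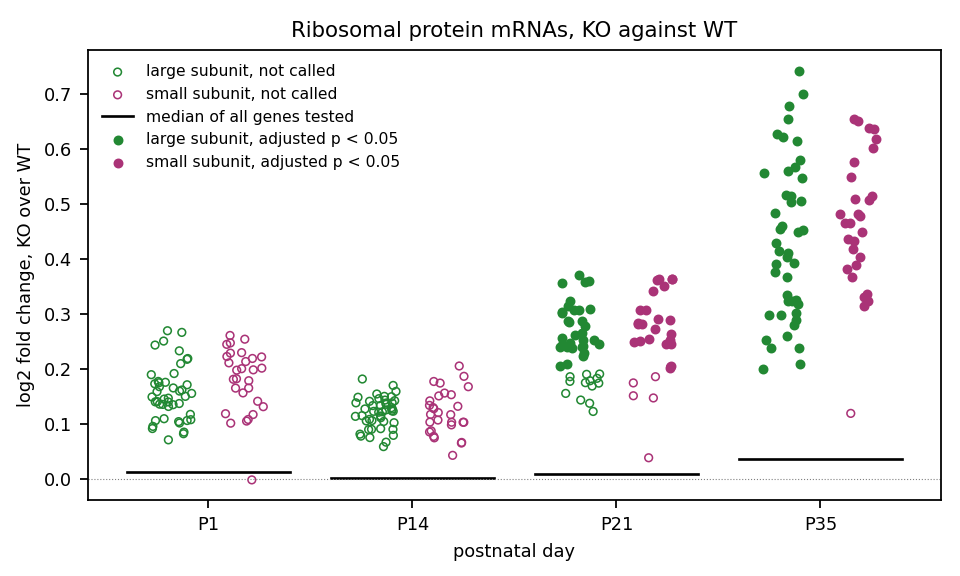
Log2 fold change of KO against WT (y axis) of each of the 74 genes at the 4 ages (x axis), large and small subunit apart. Filled points were called at an edgeR adjusted p under 0.05, and the lines mark the median over all genes tested. The median over the members was 0.16, 0.12, 0.25 and 0.45 at P1, P14, P21 and P35.

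The log2 fold change was larger at P35 than at P21 in 72 members and larger at P21 than at P14 in 71. In the edgeR interaction terms over the 32 libraries, however, the KO effect of no member was called different between neighbouring ages at an adjusted p under 0.05. The counts were 0 for P14 against P1 (all genes 0.0269%), 0 for P21 against P14 (all genes 1.42%) and 0 for P35 against P21 (all genes 2.18%), and DESeq2 called 0, 0 and 1 (Rpl21; all genes 0.118%, 2.68% and 4.23%). With counts scaled by library totals in place of TMM, 11 members were called for P35 against P21 (all genes 3.92%). At an unadjusted p under 0.05 there were 0, 1 and 19 members, against 6.46%, 12.9% and 17.4% of all genes. The median differences in log2 fold change were -0.03, 0.12 and 0.17, and the first was 0.10 without KO replicate 4 of P1.

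From P21 to P35 the smallest p were those of Rps28 (difference in log2 fold change 0.34, adjusted p = 0.0966), Rpl21 (0.32, adjusted p = 0.103) and Rpl36a (0.37, adjusted p = 0.120). Rpl21 had 219.6, 210.4, 197 and 217 CPM in WT and 245, 274, 243 and 258 in KO at P21, and 193, 214, 174 and 194 and 277, 262, 318 and 315 at P35. Between these ages its levels overlapped in each genotype, with most P35 libraries on the high side in KO and on the low side in WT. From P14 to P21 the smallest p were those of Rpl22 (0.21, adjusted p = 0.332), Rplp2 (0.20, adjusted p = 0.420) and Rpl36a (0.23, adjusted p = 0.454). From P1 to P14 they were those of Rps29 (0.12, adjusted p = 0.909), Rps28 (0.12, adjusted p = 0.926) and Rps24 (-0.13, adjusted p = 0.949). Without KO replicate 4 of P1 the difference of Rps24 was 0.06.

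Set against the age course of WT, KO means at P35 were above the WT means of P21 in 69 members, above those of P14 in 57 and above those of P1 in 4. At P21 the KO mean was above the WT mean of P14 in 30 members. These comparisons of means carry no test. The WT age course and the KO differences share their WT libraries, so the 2 were not set against each other gene by gene.

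What the members shared beyond their names was examined by position, level and start sequence. They lie on 19 chromosomes, with 14 on chromosome 7 and 4 on the X chromosome, which also carries *Mtm1*. The 14 genes of chromosome 7 had a median log2 fold change of 0.46 at P35 and 14 were called. The X-linked genes, Rpl10, Rpl36a, Rpl39 and Rps4x, had a median of 0.55 (range 0.30 to 0.70) and 4 of 4 were called, near the median of 0.45 over all members. Across the 74 genes the log2 fold change was lower for members with a higher mean CPM, with Spearman's rho of -0.55 at P21 and -0.38 at P35, while with mRNA length it was -0.25 and -0.09. Genes are not independent replicates, and both measures come from the same libraries. The 13 genes with a TOP-like run at the annotated start had a median of 0.50 at P35 (range 0.21 to 0.60) and the 42 with windows but no run 0.44 (range 0.12 to 0.74), and at P21 the medians were 0.29 and 0.25.

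Ribosomal protein genes have many pseudogenes, to which reads can be assigned in error. A search of the transcripts found 343 copies with at least 95% identity over at least 50% of the mRNA, for 49 of the 74 members. Over all 32 libraries the median share of counts in such copies was 0.265%, and it was over 10% for Rpl41 and Rps26 only. At P35 it was also over 10% for Rpl7a (16.1% in WT and 11.0% in KO) and Rpl29 (12.7% and 13.2%). Counts of a copy that overlaps another gene include the reads of that gene. This holds for the largest copies of Rps26 (Med21), Rpl7a (Ciapin1) and Rpl29 (Uimc1). With the copies added to their members, 73 were called at P35 and 56 at P21.

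Cytosolic ribosomal genes that the rule leaves out had calls in both directions. Of the 13 tested at P35, 6 were higher, 1 was lower and 6 were not called (all genes 21.4% higher, 20.1% lower), with a median of 0.30. Rpl3, the large subunit protein at the peptidyl transferase centre, went from means of 73.4 ± 6.91 CPM in WT to 134 ± 23.1 in KO (SD, n = 4; log2 fold change 0.89, adjusted p = 0.000674). Its muscle-specific paralog Rpl3l went the other way, from 545 ± 17.9 to 398 ± 44.1 CPM (-0.43, adjusted p = 0.00514). In WT the mean of Rpl3 was 501 CPM at P1 and 73.4 at P35, and that of Rpl3l was 23.3 and 545. Fau (0.57, adjusted p = 0.000946), which encodes a small subunit protein fused to a ubiquitin-like one, and Rps3a1 (0.53, adjusted p = 0.00252) were higher in KO.

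Genes for rRNA synthesis and ribosome assembly were mostly higher or not called at P35, with 19 higher, 4 lower and 22 not called of 45 and a median of 0.17, against 21.4% of all genes higher and 20.1% lower. Gar1 (0.89, adjusted p = 0.000350), a protein of the particles that modify rRNA, Npm1 (0.53, adjusted p = 0.000625), a nucleolar chaperone, and Sbds (0.58, adjusted p = 0.000344), which helps release a block on the new large subunit, were higher. The 4 that fell were Polr1a, Polr1b, Rrn3 and Rrp12, of which the first 3 encode parts of the RNA polymerase I machinery that transcribes rRNA. At P21, 7 of the 45 were higher and 1, Polr1a, was lower (all genes 11.4% and 9.57%).

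Of 36 translation factors, 8 were higher, 5 lower and 23 not called at P35 (median 0.09), with a share of higher genes near that of all genes and a share of lower genes below it. The 3 with the smallest p were higher, namely Eef1a1 (0.92, adjusted p = 0.000333), an elongation factor that adult muscle largely replaces by Eef1a2, Eef1b2 (0.61, adjusted p = 0.00143), its exchange factor, and Eif3d (0.42, adjusted p = 0.00166), an initiation factor. Those that fell were Eif4e, Eif4g1, Eif4g2, Eif5 and Pabpc4. Of 18 regulators, 3 were higher (Myc, Mdm2 and Trp53), 6 were lower and 9 were not called (all genes 21.4% higher, 20.1% lower), with a median of -0.10. The lower ones included Mtor (-0.53, adjusted p = 0.00248), the growth kinase, Rps6kb1 (-0.51, adjusted p = 0.000705), its kinase target, and Larp4 (-0.60, adjusted p = 0.000221), an mRNA-binding protein, and the others were Tsc1, Tsc2 and Eif4ebp2.

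The mitochondrial ribosomal proteins, which translate the mitochondrial genome, had a median of opposite sign at P21 and P35. At P35, 1 of 77 was higher (Mrpl33, 0.49, adjusted p = 0.000783), 32 were lower and 44 were not called (all genes 21.4% higher, 20.1% lower). The median was -0.17, and 18 of 77 log2 fold changes were positive. Mrpl4 (-0.58, adjusted p = 0.000359) and Mrpl34 (-0.73, adjusted p = 0.000639) had the smallest p. At P21, 4 were higher and 24 lower (all genes 11.4% and 9.57%). In WT 76 of the 77 were higher at P14 than at P1 (median 0.88, all genes 37.3%). At P1 and P14 edgeR called 0 genes of each of these lists between the genotypes, with between 0 and 6 genes a list at an unadjusted p under 0.05.

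**Figure D5:**
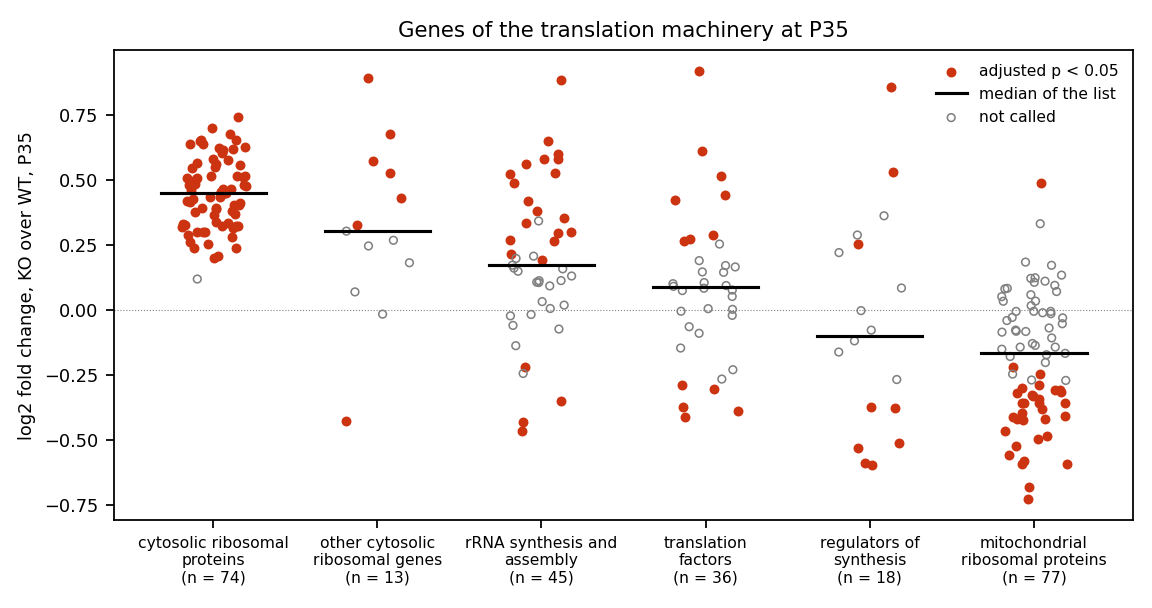
Log2 fold change of KO against WT at P35 (y axis) of the genes of each list (x axis), 1 point per gene. The lists are the 74 cytosolic ribosomal protein genes, 13 cytosolic ribosomal genes outside the rule, 45 genes of rRNA synthesis and assembly, 36 translation factors, 18 regulators and 77 mitochondrial ribosomal protein genes, with medians of 0.45, 0.30, 0.17, 0.09, -0.10 and -0.17.

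Markers of other cell types and of immature fibres moved with genotype at the same ages. The summed CPM of 5 markers of immature fibres was 47.0 to 72.3 in WT and 122 to 147 in KO at P21, with 4 of 5 called higher, and 30.3 to 39.5 and 165 to 269.9 at P35, with 5 of 5 higher. For macrophages and leukocytes it was 29.7 to 34.4 in WT and 43.1 to 55.5 in KO at P21 (4 of 6 tested higher) and 28.9 to 36.1 and 41.8 to 62.1 at P35 (5 of 5 tested higher). The sums of both lists were thus separate between genotypes at P21 and P35. At P14, where DESeq2 or the block called a few members, the ranges of both sums overlapped. By replicate number the immature fibre sums were 541, 692, 260 and 139 CPM in WT and 1650, 1326, 449 and 192 in KO. KO was thus higher in each numbered pair. All 5 of 5 of these markers had positive log2 fold changes at P14, with 0 called in edgeR. The macrophage and leukocyte sums were 30.5 to 38.0 in WT and 27.2 to 40.8 in KO, and KO was not higher in every pair. No marker of either list was at 0 in all 4 libraries of a group. Their part in the ribosomal protein result was not tested.

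The fast fibre markers, which define this muscle, were present at 126517 to 184092 CPM in WT and 86964 to 117587 in KO at P35, with 1 of 9 higher and 3 lower. Of the satellite cell markers 1 of 5 was higher and 2 were lower at P35. Of the fibroblast markers 1 of 6 was higher at that age, and of the endothelial markers 0 of 4 were higher and 2 lower. At P21, 1 of 5 satellite cell markers was higher and 3 were lower, and 1 of 6 fibroblast markers was higher. Also lower at P21 were 3 of 4 endothelial, 1 of 9 fast fibre, 1 of 5 erythroid and 1 of 6 proliferation markers. Of the keratinocyte markers 2 of 5 tested at P35, Trp63 and Sfn, were higher, and 2 of 4 tested at P21. Keratinocyte markers summed to 2078 to 7586 CPM over both genotypes at P1, to 8.82 to 14.2 in WT and 36.1 to 44.7 in KO at P21, and to 11.9 to 14.0 and 37.5 to 47.1 at P35. Among them Krt5 and Dsg1a were at 0 in every WT library of P14 and P21, and Krt1 in every KO library of P21. Erythroid markers gave 0 calls of 4 in edgeR at P35 (also 0 at an unadjusted p under 0.05), proliferation markers 1 higher and 1 lower of 6, and the genes of the Y chromosome 2 lower of 4 (Kdm5d and Uty), while Xist was below the filter. The part of these further lists was likewise not tested.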

How the data were processed

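Total RNA of mouse TA muscle was sequenced by the authors as poly(A)-selected, strand-specific paired-end libraries, 4 per genotype and age. Per the labels, reads were aligned to GRCm38 with STAR 2.6.1 and counted with RSEM 1.2.22, whereas the methods of the study name HTSeq. The annotation release and the strand setting of the counting are not given in the sources used here. The deposited values are expected counts per gene and library from the authors, not scaled and not pooled. RSEM shares reads out between genes, and 4.26% of the values were not whole. They were rounded. All columns of the table were used.

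Symbols and coordinates came from GENCODE M21 (GRCm38), which named 54723 of 54838 genes. Counts were analysed in R 4.3.3 with edgeR 4.0.16 (filterByExpr, TMM, glmQLFit and glmQLFTest, two-sided, Benjamini-Hochberg adjustment over all genes tested). Each comparison used its own 8 libraries, and the interactions used 1 fit of 32. Alternatives were DESeq2 1.42.0, RLE size factors, library totals, other filters, removal of mitochondrially encoded genes, TMM without ribosomal protein genes, counts summed with pseudogenes, 1 fit of all ages, a block for replicate number, and omission of each library in turn. Adding near-identical copies, found with blastn 2.17.0, was chosen after seeing the data. Scripts were tested on simulated data. No pair of libraries of the same group was alike within sampling noise, and pairs across groups were not compared.

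The members and all gene lists were chosen with earlier results of these data known. Members named are, for each comparison, the 3 highest and 3 lowest log2 fold changes among those called, or with none called the 3 smallest p, with the stalk genes and the 3 highest and 3 lowest levels per length. Of each other list the 3 smallest adjusted p at P35 are named. Other genes were named after their values were seen. For WT and KO libraries with the same number, deviations from the group means correlated with r of 0.413 to 0.81 at P14, and at other ages at least 1 pair was below 0.1, so the numbers were taken to pair libraries at P14 only. The depth was 49321034 to 85631408 counts per library, and no molecular identifiers are described. SE and p-values come from the spread between libraries.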

Additional observations from a re-analysis of the deposited data

Results flagged for a closer look

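The levels of the 32 members named by the rule and the summed share of counts were examined in each of the 8 groups of 4 libraries for 1 value far from the other 3 by Dixon's criterion, which makes 264 sets of values. Of these 24 were flagged, all of them levels of single members, where chance gives about 1 in 20. Most of the flagged values belong to KO replicate 4 of P1, which lay above the other 3 libraries of its group. Its levels were 802 CPM for Rpl13a, 405 for Rpl11, 582 for Rpl6, 551 for Rpl15, 436 for Rpl23a, 228 for Rpl39, 353 for Rpl41 and 593 for Rplp1 among the large subunit genes. Among the small subunit genes they were 583 CPM for Rps12, 822 for Rps14, 407 for Rps15a, 638 for Rps18, 437 for Rps19, 625 for Rps24, 329 for Rps27 and 576 for Rps27a. The same library had the low fibre marker sums given in the report, and their part in these values was not tested.

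The other flagged values were smaller departures. At P14 they were Rps27a in WT replicate 3 (175 CPM), Rpl36 in WT replicate 4 (114 CPM), Rps24 in WT replicate 4 (259 CPM), Rps29 in KO replicate 4 (143 CPM) and Rps20 in KO replicate 3 (161 CPM). At P21 WT replicate 3 was low for Rpl39 (70.6 CPM) and Rplp1 (265 CPM). At P1 WT replicate 2 was apart for Rpl29 (259 CPM).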

How the results depend on the processing

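Over the alternatives run, the direction of each median and named gene was kept except in the interaction of P14 against P1. There Rps24 was at -0.13, ran from -0.21 to 0.06 with 1 library left out and was above 0 (0.0626) only without KO replicate 4 of P1, and the members' median went from -0.03 to between -0.08 and 0.10 with 1 library left out. Scaling by library totals moved the median over all genes to 0.04, 0.09, 0.20 and 0.44 for KO against WT at P1, P14, P21 and P35, and to -0.85, -0.19 and -0.07 in the 3 WT steps. The members' median became 0.21 at P14, 0.44 at P21, 0.85 at P35, -1.41 for WT P14 against P1, -0.42 for WT P21 against P14, and for the interactions 0.23 at P21 against P14 and 0.40 at P35 against P21, with 11 members called in the last. Under it the share of all calls that are higher went from 54.4% to 89.0% at P21, from 51.6% to 90.2% at P35, from 46.9% to 17.2%, 50.7% to 23.5% and 56.6% to 39.7% in the WT steps, and from 76.8% to 95.8% and 31.0% to 86.8% in the last 2 interactions. With at least 10 counts in every library the median of WT P14 against P1 was -0.74. At P14, DESeq2 called 3 members and the replicate block 5. At P21, 36 were called with no filter and 31 in the fit of all 32 libraries. DESeq2 called 1 interaction of P35 against P21. The stricter threshold left 0 members at P21, 13 at P35, 44, 3 and 0 in the WT steps. Leaving out 1 library gave 31 to 56 calls at P21, 62 to 72 at P35, 37 to 48 for WT P21 against P14 and 8 to 14 for WT P35 against P21. The median at P1 ranged from 0.03 to 0.20. The replicate block gave 3 named results a call and took it from 9, and outside P14 its numbers did not pair the libraries. Of 1020 values for 51 named results, 910 kept their side of the threshold, 101 lost the call and 8 gained it.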
